A study of Homo sapiens with 8 samples.

Results

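Kinesin mRNAs were taken as every gene symbol made of KIF and a number, with or without a final A, B or C, or of KIFC and a number: 42 of the 59414 genes in the deposited gene counts. The tables of edited reads listed 37 of them in the sort of P-bodies and 34 in the knockdown. By their known roles 14 were placed in a mitotic class, 15 in a transport class, and the other 13, with roles in cilia, Hedgehog signalling, microtubule growth or none assigned here, were kept apart. They include KIF2A, which acts at spindle poles as well as in neurons. CENPE, a mitotic kinesin with another kind of symbol, fell outside the symbol rule. The libraries came from HEK293T cells, an established line from human embryonic kidney, which carried both editors of the PB-TRIBE-STAMP system. One editor turns adenosine into inosine (A-to-I, TRIBE) and the other turns cytidine into uridine (C-to-U, STAMP), and both are aimed at processing bodies (P-bodies), cytoplasmic granules of mRNA with decay and repression proteins. The 4 groups had 2 libraries each. Sorted P-bodies (labelled total RNA, input 50 ng) were set against cytosol (labelled cytoplasmic RNA, 100 ng), and cells given an siRNA against EDC4 (siEDC4) against cells given a control siRNA (siNC), both labelled polyA RNA with an input of 500 ng. EDC4 is a scaffold of the decapping machinery. All 4 groups carried the editors, so an edit of another origin or a base variant cannot be told apart from an editor's mark, and in the sort the fraction cannot be told apart from the input amount and RNA type.

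Kinesins are motors that use ATP to move along microtubules or to take them apart. In dividing cells one set builds the spindle, aligns chromosomes and completes cytokinesis, and the mRNAs of many of these motors rise and fall with the cell cycle. Another set carries vesicles, mitochondria and ciliary cargo, often through light chains and adaptor proteins. The nucleotide-binding loop of the motor domain, the P-loop, is shared by both sets.

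Each sort library held between 21186963 and 23716926 counts, and each knockdown library between 5697417 and 6294767 reads of listed genes. EDC4 stood at 40.3 and 32.7 CPM (counts scaled to a common library total) in the siEDC4 libraries and at 109.8 and 106.1 in the siNC libraries, 33.9% of the control level (adjusted p = 2.6e-25, edgeR). The sorted P-body libraries differed from each other by much more than sampling noise (chi-square per degree of freedom 22.5), the cytosol libraries by less (3). The siNC libraries differed in reads by close to sampling noise alone (1.02 over 10642 genes) and were counted as 1 sample. Their edited reads differed by more (1.30 for A-to-I, 1.31 for C-to-U), and with the siNC libraries kept apart 0 kinesins passed in either editing table, as with them summed. The knockdown tests therefore took their spread from the siEDC4 libraries (3.46) only. The HEK293T markers LIN28B, PAX2, SALL4 and NEFM were found in all 4 sort libraries, LIN28B at 102 to 455 CPM by total count, and SALL4, the lowest of them, at 2.02 to 2.98. Of 12 markers of blood, fibroblasts and epithelial tumour lines, CD3E, HBB, THY1 and KRT7 were at 0, COL1A1 and CDH1 stood at 8.40 to 21.8 CPM, LUM at 1.75 to 4.47 and EPCAM at 1.26 to 2.36, and PTPRC, DCN, LYZ and ESR1 had at most 9 counts in any library. Whether the 2 libraries of a group are separate cultures is not stated, and a p-value here is measured against their spread, which may be technical.

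Kinesin mRNAs were more often higher in sorted P-bodies than lower. Of the 39 kinesins with enough counts to test, 19 were higher and 4 lower at an adjusted p under 0.05 (edgeR), against 28.8% higher and 29.0% lower among all 18745 genes tested. The median log2 fold change was 0.27 for the kinesins and -0.03 for all genes. Groups that do not overlap were common in the sort. Both sorted libraries were above both cytosol libraries for 38.8% of all genes tested, and below both for 41.6%. With library size as the only scaling, which moved the median of all genes to -0.23, 18 kinesins were higher and 7 lower. KIF2B had no count in any library, and KIF19 and KIF4B, the latter an intronless near-copy of KIF4A, had under 1 CPM in each library, so these 3 were not tested.

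**Figure D1:**
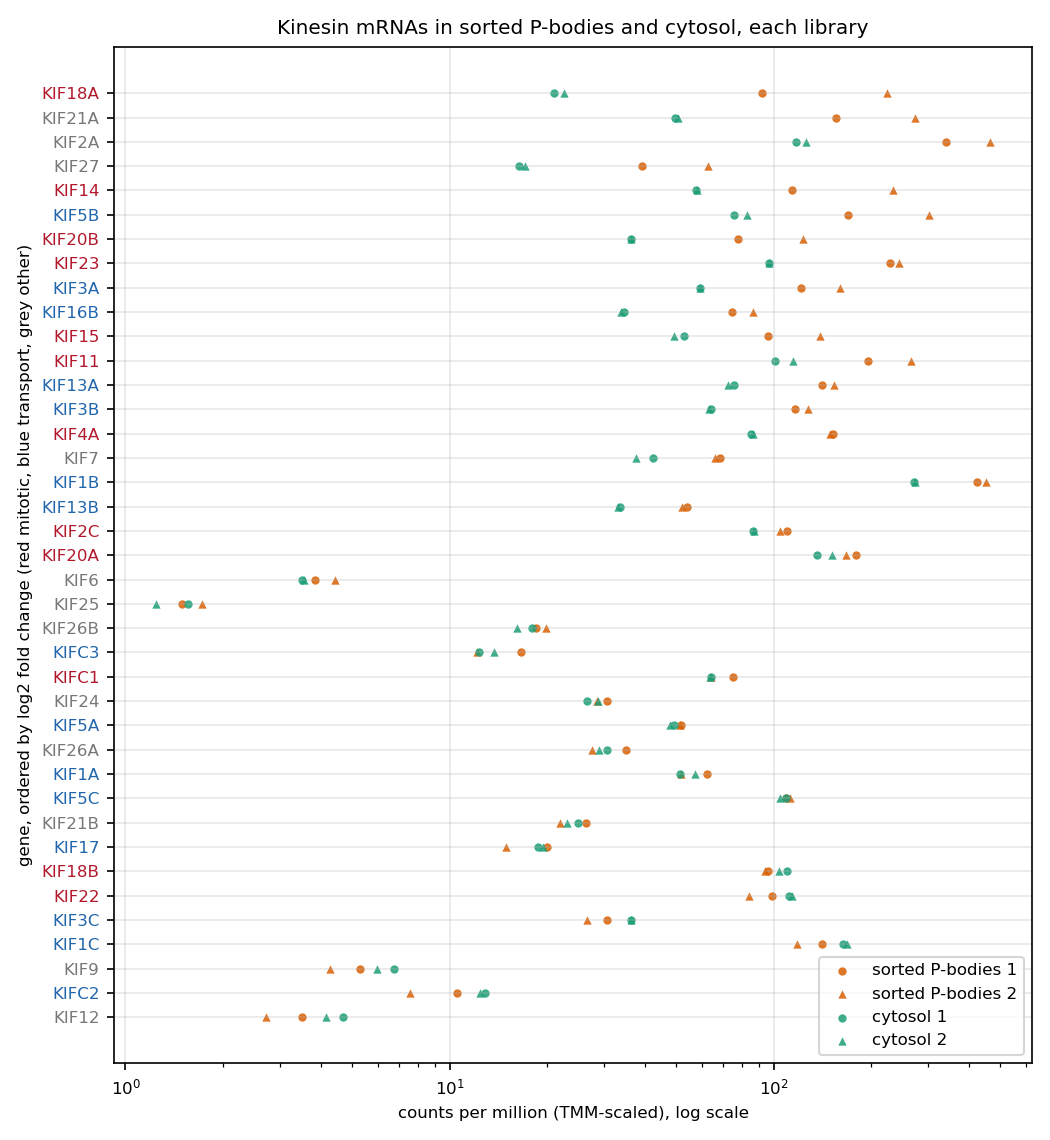
CPM, scaled to the TMM library size, on a log axis for the 39 kinesin mRNAs tested in the sort, with 1 point per library and genes ordered by log2 fold change. The sorted P-body points lie to the right of the cytosol points from KIF18A (log2 fold change 2.86) through KIF20A, and to the left for the lowest genes, down to KIF12.

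In the mitotic class 8 of 12 tested mRNAs were higher and 1 was lower, with a median log2 fold change of 0.96. KIF18A, a kinesin-8 motor that damps chromosome movement on the metaphase plate, stood at 92.4 and 224.1 CPM after sorting and at 20.98 and 22.6 CPM in cytosol. Both sorted libraries lay above both cytosol libraries, and sorted library 2 was far above sorted library 1. The fold change of 2.86 ± 0.34 on the log2 scale (SE, adjusted p = 7.2e-05) was the largest of any kinesin, and became 2.07 without sorted library 2. Its relative KIF18B, which trims astral microtubules, was at 96.5 and 93.97 CPM after sorting, against 110.4 and 104.2 CPM in cytosol, a log2 difference of -0.17 ± 0.10 that did not pass (adjusted p = 0.18).

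The coding stretches around the P-loops of these relatives are given because they spell similar proteins with different codons. Each runs over 36 codons, 5′ to 3′ on the coding strand, from the GENCODE version 29 transcripts of hg38, with the P-loop codons in capitals. The KIF18A stretch lies on the minus strand of chromosome 11, in exon 2 (chr11:28097623-28097653) and exon 3 (chr11:28094724-28094800), and that of KIF18B on the minus strand of chromosome 17, in exon 2 (chr17:44936032-44936062) and exon 3 (chr17:44935340-44935416).
KIF18A: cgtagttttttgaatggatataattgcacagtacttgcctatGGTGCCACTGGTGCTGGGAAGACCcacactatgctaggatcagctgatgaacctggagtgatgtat
KIF18B: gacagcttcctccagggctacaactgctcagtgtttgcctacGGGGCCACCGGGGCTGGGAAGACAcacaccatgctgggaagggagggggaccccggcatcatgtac
Codons ending in G or C make up 11 of the 36 in KIF18A and 31 in KIF18B. The stretches code the same residue at 27 positions, with another codon at 17 of these. At 15 of the 17 the KIF18A codon ends in A or T and the KIF18B codon in G or C, and at 1 the reverse holds.

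Other mitotic motors were raised by less. KIF14, needed for the midbody in cytokinesis, reached 114.4 and 234.4 CPM in the sorted libraries against 57.6 and 58.2 CPM in the cytosol libraries (log2 fold change of 1.59 ± 0.27, adjusted p = 0.00064, and 0.96 without sorted library 2). KIF20B, also a cytokinesis motor, stood at 77.9 and 123.0 against 36.3 and 36.4 CPM (1.47 ± 0.19, adjusted p = 0.00011). KIF23, the motor subunit of centralspindlin, stood at 228.5 and 244.2 against 97.1 and 96.7 CPM (1.29 ± 0.11, adjusted p = 1.1e-05). For these 3 mRNAs every sorted library was above every cytosol library, and KIF23 was the closest between sorted libraries. KIF11, which slides spindle microtubules apart, stood at 196.0 and 266.2 against 101.3 and 115.2 CPM (1.09 ± 0.15, adjusted p = 0.00021). KIF15, which can stand in for KIF11, rose by 1.20 and the chromokinesin KIF4A by 0.82. KIF2C, a microtubule depolymerase at centromeres, rose by 0.31 (adjusted p = 0.026), a call lost under DESeq2, with library size alone, with no filter on low counts, and without either cytosol library. KIF22, a chromokinesin that pushes chromosome arms, went the other way, at 98.6 and 83.99 CPM after sorting and 111.3 and 114.4 CPM in cytosol (-0.305 ± 0.11, adjusted p = 0.044). KIF20A and KIFC1, of the midzone and of the spindle poles, had differences of 0.27 and 0.12 that did not pass.

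In the transport class 7 of 15 mRNAs were higher and 3 lower, with a median log2 fold change of 0.15. KIF5B, the widely expressed heavy chain of kinesin-1, stood at 169.2 and 302.0 CPM after sorting and at 75.5 and 82.9 CPM in cytosol. No sorted library overlapped a cytosol library, and the log2 fold change was 1.57 ± 0.23 (adjusted p = 0.00025). The neuronal heavy chains KIF5A and KIF5C differed by 0.09 and 0.046 and did not pass. KIF1B, a carrier of mitochondria and vesicles, stood at 424.9 and 453.0 against 271.3 and 272.8 CPM (0.69 ± 0.11, adjusted p = 0.00043). KIF3A and KIF3B, the motor pair of heterotrimeric kinesin-2, rose by 1.25 and 0.94, the endosome motors KIF16B and KIF13A by 1.23 and 0.99, and KIF13B, a relative of KIF13A, by 0.68.

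The 3 transport mRNAs that fell were lower by less than the rises. KIF1C, a vesicle motor, stood at 140.9 and 118.5 CPM after sorting and at 164.2 and 168.0 CPM in cytosol (-0.36 ± 0.12, adjusted p = 0.026). KIF3C, the third kinesin-2 motor subunit, stood at 30.7 and 26.5 against 36.4 and 36.2 CPM (-0.34 ± 0.11, adjusted p = 0.021). KIFC2, a minus-end-directed motor, stood at 10.6 and 7.57 against 12.9 and 12.4 CPM (-0.47 ± 0.17, adjusted p = 0.033). Both sorted libraries lay below both cytosol libraries for KIF22 and for these 3, as for 41.6% of all genes tested. Without either cytosol library none of these 4 falls passed (adjusted p from 0.056 to 0.28), without sorted library 2 KIFC2 did not (-0.275, adjusted p = 0.064, against -0.75 without sorted library 1), and DESeq2 kept only KIF1C. KIF1A, KIF17 and KIFC3 had differences of 0.07, -0.125 and 0.15 that did not pass.

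The stretches of KIF5B and KIF5C are set side by side because they code for nearly the same protein while the mRNAs differed in the sort. That of KIF5B lies on the minus strand of chromosome 10, in exon 2 (chr10:32048464-32048467), exon 3 (chr10:32040384-32040457) and exon 4 (chr10:32039402-32039431). That of KIF5C lies on the plus strand of chromosome 2, in exon 2 (chr2:148922224-148922227), exon 3 (chr2:148929281-148929354) and exon 4 (chr2:148937284-148937313).
KIF5B: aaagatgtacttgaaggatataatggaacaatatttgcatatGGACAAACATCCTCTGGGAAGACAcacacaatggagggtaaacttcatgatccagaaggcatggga
KIF5C: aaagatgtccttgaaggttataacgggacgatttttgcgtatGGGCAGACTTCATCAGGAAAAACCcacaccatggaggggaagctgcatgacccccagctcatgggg
Codons that end in G or C number 8 of 36 in KIF5B and 21 in KIF5C. Of 34 positions with the same residue 22 use another codon, and at 15 of these KIF5B ends in A or T and KIF5C in G or C, against 3 the other way.

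Among the 12 other kinesins tested 4 were higher and 0 lower, with a median of 0.18. KIF21A, a kinesin-4 that restrains microtubule growth, stood at 155.7 and 274.0 CPM after sorting and at 49.7 and 50.8 CPM in cytosol (2.10 ± 0.22, adjusted p = 4e-05). Its relative KIF21B stood at 26.5 and 21.9 against 24.9 and 23.1 CPM and did not pass (0.015 ± 0.12). KIF2A, a depolymerase at spindle poles and in neurons, rose by 1.73, and the Hedgehog-linked relatives KIF27 and KIF7 by 1.60 and 0.75. KIF24, KIF26A, KIF26B, KIF6, KIF9, KIF12 and KIF25 did not pass, with log2 differences from -0.505 to 0.23. The stretches of KIF21A, in exons 2 and 3 on the minus strand of chromosome 12 (chr12:39370039-39370086 and chr12:39369852-39369911), and of KIF21B, in exons 2 and 3 on the minus strand of chromosome 1 (chr1:201009266-201009313 and chr1:201008892-201008951), show the contrast in codons between these relatives.
KIF21A: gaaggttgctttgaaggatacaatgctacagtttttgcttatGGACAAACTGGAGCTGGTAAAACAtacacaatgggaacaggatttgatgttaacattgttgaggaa
KIF21B: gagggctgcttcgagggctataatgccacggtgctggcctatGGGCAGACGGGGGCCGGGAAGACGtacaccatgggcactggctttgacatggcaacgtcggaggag
In KIF21A 6 of 36 codons end in G or C, and in KIF21B 30 do. They share 31 residues, 24 of them with another codon, and 22 of these end in A or T in KIF21A and in G or C in KIF21B, against 1 the other way.

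Some counts could hold reads of a neighbour, since whether the counting used strand is not given in the sources used here. KIF2A shares 2446 of its 13050 exon bases with DIMT1 on the other strand, which had 724 and 599 counts after sorting and 1146 and 1306 in cytosol, against 7485 to 8932 and 2860 to 3155 for KIF2A. KIF7 shares 589 bases with TICRR, a gene with more counts than KIF7 in every library, and KIF9 shares 870 with KIF9-AS1 and 178 with KLHL18, so both are uncertain. KIF20A, KIF24, KIF5A and KIF4A share 71 to 143 bases with an expressed neighbour, and KIF4A and KIF4B can exchange reads. KIF1B was matched over 118 bases to Y_RNA, a symbol shared by several loci, so expression of a copy there is not known.

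Per kilobase of annotated exon, the highest kinesin level in cytosol was that of KIF20A, at 37.4 reads scaled to library total and kilobase (RPKM), followed by KIF22 at 26.2, KIF2C at 23.8 and KIF18B at 22.7. The annotated exons can be longer than the transcript used for the codon features. They had 4311 bases against 2113 for KIF22, 3852 against 3201 for KIF20A and 13050 against 2539 for KIF2A. The order therefore depends on the length used, in cytosol and in sorted P-bodies. The order in sorted P-bodies differed between the libraries. KIF20A led in library 1 at 46.7 RPKM, ahead of KIF11 (36.8), KIF23 (34.75), KIF4A (33.4), KIF2C (30.2) and KIF5B (28.8). There KIF18A (20.5) was also below KIF2A (26.0), KIFC1 (24.7), KIF1B (23.7) and KIF22 (22.9). KIF5B led in library 2 at 51.5 RPKM, ahead of KIF11 (50.0), KIF18A (49.6), KIF20A (43.4) and KIF23 (37.1). In cytosol KIF18A stood at 4.65 and 4.99 RPKM, below KIF20B in both libraries (5.28 and 5.30).

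The classes differed both in the sort and in codon ending. The median mitotic mRNA lay 0.81 above the median transport mRNA on the log2 scale, and this difference was 0.42 in the libraries numbered 1 and 0.90 in those numbered 2, and no test was made over members. Across the 39 kinesins the log2 fold change fell with the share of codons that end in G or C (GC3), with Spearman's rho of -0.80 and Pearson's r of -0.83. The relation held inside the mitotic class (rho -0.94, 12 mRNAs), the transport class (-0.82, 15) and the others (-0.52, 12), and over all 13592 protein-coding genes tested it was -0.53. These values are descriptions across genes of the same 4 libraries, and genes are not independent replicates. GC content of the whole coding sequence gave -0.82, of the transcript -0.80 and of the 3′ UTR -0.76, so codon ending was not separated from base composition at large. Coding length gave 0.26 over the 39, but 0.76 inside the mitotic class, where transcript and 3′ UTR length gave 0.79 each, and 0.375 over all coding genes.

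All 11 kinesins with a GC3 under 45% were higher in sorted P-bodies, with a median of 1.57. This group held 6 mitotic, 2 transport and 3 other mRNAs, and 70.0% of all coding genes in that range were higher. Between 45 and 60%, 7 of 10 kinesins were higher, against 36.2% of all genes. At 60% or more, 1 of 18 kinesins was higher, KIF7, against 11.5%, and the 4 that fell were all in this range, where 48.6% of all genes fell. The median GC3 was 44.7% for tested mitotic and 61.5% for transport kinesins. With the GC3 trend of all coding genes removed, the medians became 0.37 for mitotic, 0.51 for transport and 0.48 for other kinesins. The class difference became -0.13, while with the gene length trend removed instead it was 1.05. KIF18A (1.71), KIF21A (1.24), KIF7 (1.18) and KIF16B (1.11) kept the largest distance from the trend, and KIF11 (-0.024) lay on it.

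**Figure D2:**
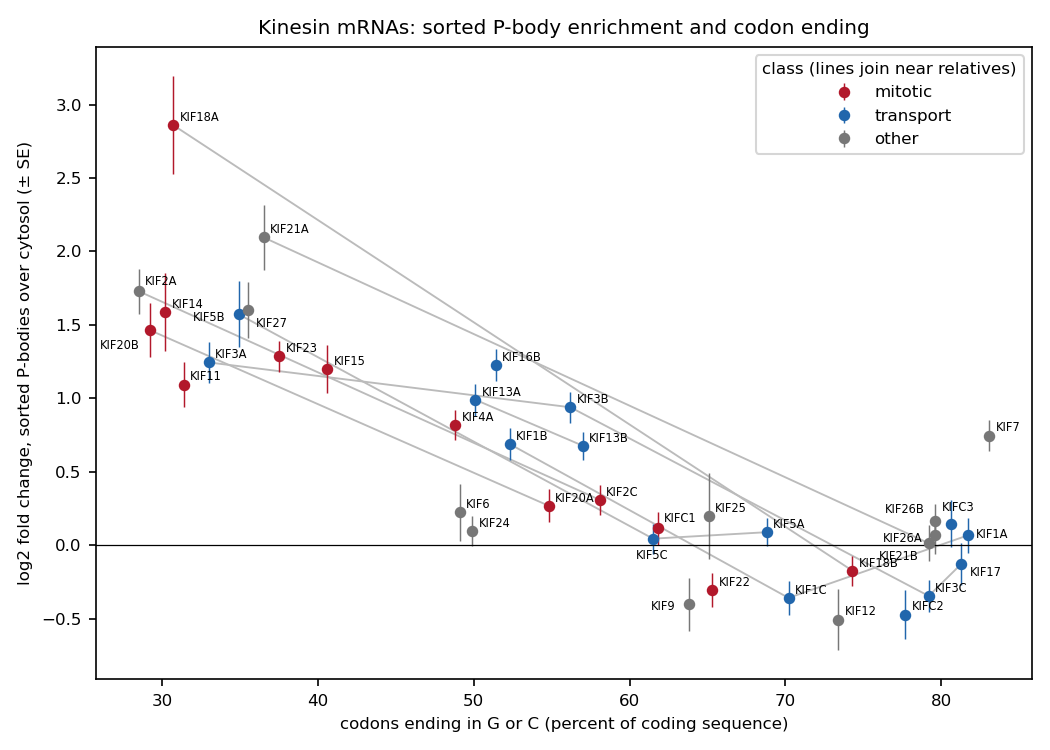
Log2 fold change of sorted P-bodies over cytosol, with its SE, against the percent of codons ending in G or C for the 39 tested kinesins, with grey lines joining near relatives. The points fall from KIF18A and KIF21A at the upper left to KIF3C and KIFC2 at the lower right, with KIF7 above the rest at the right.

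The gap between the sorted libraries moved with the same feature. Sorted library 2 over sorted library 1 had a rho of -0.82 with GC3 over the 39 kinesins and of -0.52 over all coding genes, and the median size of this gap was 0.23 on the log2 scale for kinesins, against 0.06 between the cytosol libraries. Each sorted library on its own over the cytosol mean gave a rho of -0.73 (library 1) and -0.82 (library 2). The part of that gap in the relation was not tested.

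Several near relatives, chosen after the values were seen, differed in both measures. In kinesin-2, KIF3A (GC3 33.0%) rose by 1.25, KIF3B (56.2%) by 0.94, KIF3C (79.2%) had -0.34 and KIF17 (81.3%) -0.125. In the KIF1 family KIF1B (52.3%) rose by 0.69, KIF1C (70.2%) had -0.36 and KIF1A (81.7%) 0.07. In kinesin-13 KIF2A (28.5%) rose by 1.73 and KIF2C (58.1%) by 0.31. KIF20B (29.2%) rose by 1.47, while KIF20A (54.8%) had 0.27. Inside these families the lower GC3 did not always go with the higher fold change, since KIF1C was below KIF1A and KIF3C below KIF17. Nor did it in other relatives. KIFC1 (61.8%) had 0.12 and KIFC3 (80.6%) 0.15, a difference within their errors. KIF13A (50.1%) had 0.99 and KIF16B (51.4%) 1.23, and KIF27 (35.5%) had 1.60 and KIF21A (36.5%) 2.10. KIF26A and KIF26B, both at 79.6%, had 0.07 and 0.165, which is within their errors.

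Genes that work with kinesins were mixed in the sort, where 28.8% of all genes were higher and 29.0% lower. Of 18 kinesin light chains and adaptors 5 were higher and 8 lower, with a median of -0.235. KLC1, a light chain, stood at 40.0 and 37.2 CPM after sorting and 91.3 and 83.6 CPM in cytosol (-1.18, adjusted p = 1.5e-05), and KLC2 at 35.7 and 28.5 against 68.5 and 67.5 CPM (-1.08). FEZ2, an adaptor, stood at 65.5 and 72.3 against 33.8 and 34.8 CPM (1.00). The light chains fell while the heavy chain KIF5B rose, with no overlap between groups for any of the 3. Of 27 dynein and dynactin mRNAs, of the motor that runs the opposite way, 11 were higher and 7 lower. The heavy chain DYNC1H1 stood at 4741 and 4440 against 1293 and 1371 CPM (1.79), the light chain DYNLL1 at 48.6 and 40.1 against 122.3 and 133.3 CPM (-1.53) and the intermediate chain DYNC1I2 at 150.3 and 151.4 against 66.8 and 69.8 CPM (1.14). Of 19 other spindle and midzone mRNAs 8 were higher and 6 lower. CENPE, itself a mitotic kinesin, was kept in this list and was higher (1.04, adjusted p = 0.0024, edgeR). The list was led by the checkpoint kinase TTK at 328.5 and 422.1 against 85.2 and 98.5 CPM (2.03). ECT2, which starts the cleavage furrow, stood at 373.3 and 526.0 against 108.8 and 113.5 CPM (2.02). The centrosome protein CEP192 stood at 227.5 and 262.4 against 82.2 and 81.1 CPM (1.59).

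A-to-I editing of kinesin mRNAs was higher in sorted P-bodies for 28 of 36 tested and lower for 0, by the edgeR test of edited against unedited reads. Over all 11303 genes tested 73.4% were higher and 1.04% lower, so a rise was the rule. The sorted P-body libraries had a median score of 7.19 and 7.41% over genes, and the cytosol libraries 2.90 and 2.77%. The score is the share of a gene's reads that carry an edit. By class, 12 of 12 mitotic, 11 of 15 transport and 5 of 9 other kinesins were higher, with median log2 odds ratios of 1.59, 1.18 and 1.40, against 1.46 for all genes. Mitotic kinesins had a median score of 10.4% after sorting against 3.49% in cytosol, and transport kinesins of 9.02 against 4.03%. The sort's reads and its editing scores come from the same libraries, and the values are given side by side only.

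KIF2C had the largest rise in A-to-I score that passed, at 8.20 and 10.7% after sorting against 2.15 and 2.02% in cytosol, a log2 odds ratio of 2.28 ± 0.22 (adjusted p = 9.4e-08, edgeR). KIF3A followed, at 12.2 and 12.6% against 2.78 and 3.37% (2.16 ± 0.19, adjusted p = 4.4e-08). For both, each sorted library was above each cytosol library, which says little where 73.4% of all genes tested were higher. The share of all genes with such a gap in score was not computed. KIF2A and KIF3B had the highest scores in sorted P-bodies, at 23.98 and 26.1% and at 20.9 and 21.8%, and they were also the highest in cytosol, at 10.2 to 12.3%. KIF9, a motor of motile cilia, rested on 4 edited of 128 reads after sorting against 2 of 291 in cytosol and did not pass (ratio of shares 4.55, exact 95% counting interval 0.652 to 50.3).

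The lowest log2 odds ratios were those of KIF26B, KIFC3 and KIFC2. KIF26B, an atypical kinesin, stood at 2.11 and 0% after sorting against 2.87 and 1.13% in cytosol, on 6 of 517 and 15 of 737 reads (-0.80 ± 0.85). KIFC3, a minus-end-directed motor, stood at 3.88 and 0.654% against 4.55 and 3.27% (-0.54 ± 0.63), and KIFC2 at 1.23 and 1.05% against 1.07 and 1.83% (-0.26 ± 0.84). None of the 3 passed, and the groups overlapped in each. KIF18B rose by less than KIF18A (0.95 and 1.27), and KIF1A, KIF21B, KIF17 and KIF7 did not pass, with 0.12, -0.003, 0.74 and 0.50. The calls on KIF1C, KIF26A and KIFC1 (adjusted p = 0.022, 0.027 and 0.0044) were each lost without at least 1 library: KIF1C without either sorted library or cytosol library 2, KIF26A without either sorted library or cytosol library 1, and KIFC1 without sorted library 2. When each library was centred on its median score, KIF2C and KIF3A were higher and KIF18B, KIF1A, KIF1C, KIF21B, KIF26B and KIFC3 lower.

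C-to-U editing gave a similar split. It was higher in sorted P-bodies for 26 of 35 tested kinesins and lower for 0, against 68.1% and 0.283% of 10613 genes. The median score over genes was 2.76 and 3.12% after sorting against 0.633 and 0.595% in cytosol. In the mitotic class 11 of 12 were higher, in the transport class 11 of 15 and among the others 4 of 8, with median log2 odds ratios of 2.31, 1.94 and 1.33, against 2.30 for all genes. The difference of 0.37 between mitotic and transport medians was 0.034 in the libraries numbered 1 and 1.21 in those numbered 2. It became 0.99 without cytosol library 1, 0.595 without cytosol library 2 and 0.55 without sorted library 1. The highest scores in sorted P-bodies were those of KIF18A at 17.2 and 15.8%, against 3.97 and 4.90% in cytosol, KIF2A at 15.1 and 17.3% against 2.90 and 2.67%, and KIF3A at 13.96 and 14.6% against 3.52 and 3.05%. Each of these 3 was higher in both sorted libraries than in both cytosol libraries and passed (adjusted p = 6.4e-05, 4e-06 and 1.2e-05, edgeR). With 68.1% of all genes higher, such a gap says little, and its share over all genes was not computed.

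The 3 largest C-to-U changes by odds ratio rested on few edited reads. KIF2C stood at 0.0613 and 1.20% in sorted P-bodies, 16 edited of 2882 reads, and had 0 of 3500 in cytosol (adjusted p = 0.019, edgeR). KIF22 had 5 of 2547, at 0.0654 and 0.393%, and 0 of 4682 (adjusted p = 0.029, edgeR). With 3 edited reads over the group set in place of the 0, the shares were 6.48-fold and 3.06-fold higher. These folds take the count after sorting as exact, so they are not lower bounds. KIF1C had 15 of 3500 and 2 of 6641, a share 14.2 times as high (exact 95% interval 3.31 to 128.2), at 0.529 and 0.282% against 0.0306 and 0.0297% (adjusted p = 0.0024). KIF2C and KIF22 could not be tested without either sorted library and did not pass with limma (adjusted p = 0.22 each), and KIF1C did not pass without sorted library 1 (0.061) or with limma (0.056). At the other end KIF1A, a carrier of synaptic vesicle precursors, stood at 0.917 and 0.469% after sorting against 0.823 and 0.891% in cytosol (-0.22 ± 0.54), KIFC3 at 0.772 and 0% against 0.760 and 0.327%, and KIF17 at 1.33 and 1.07% against 1.02 and 0.713% (0.51 ± 0.81). The groups overlapped for KIF1A and KIFC3, and none of these 3 passed. Without sorted library 1 or 2, 19 of the 26 calls stood in each case, and those on KIF13B, KIF18B, KIF20A, KIF24, KIF3C, KIF4A and KIF5A each failed without at least 1 library. Centred on library medians, 0 kinesins were higher and KIF1A was lower.

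**Figure D3:**
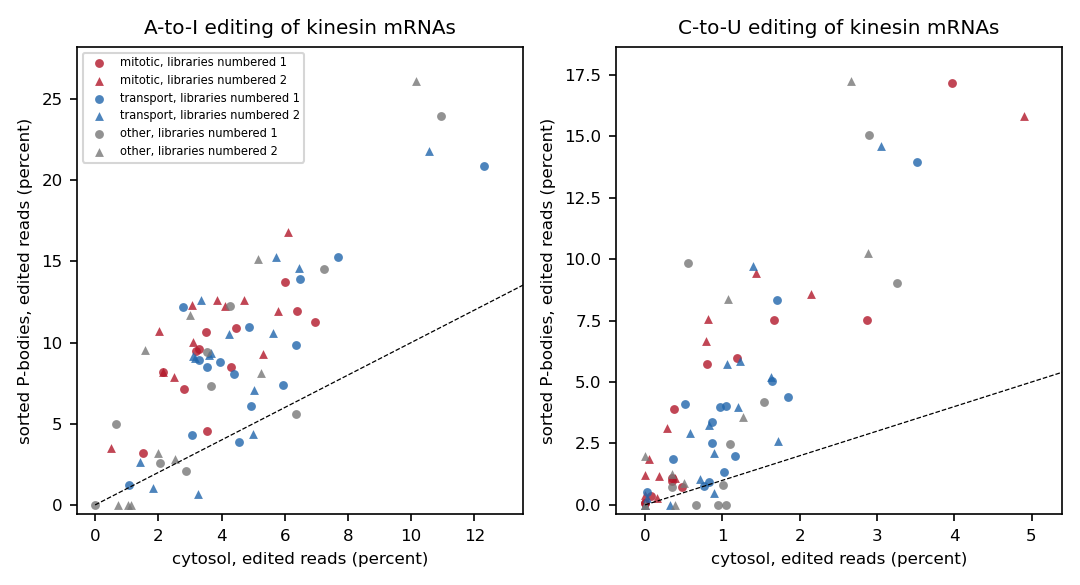
Editing score in sorted P-bodies against that in cytosol, in percent of reads, for the kinesins listed in the A-to-I table (left) and in the C-to-U table (right), with 1 point per gene and library number and a dashed line of equality. Most points lie above the line in both panels, with KIF2A and KIF3B at the top of the A-to-I panel and KIF18A and KIF2A at the top of the C-to-U panel.

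The editing scores were also lower where GC3 was higher. Over 37 kinesins rho was -0.76 for A-to-I after sorting and -0.35 in cytosol, and for C-to-U -0.80 and -0.58. Over all genes tested the 4 values were -0.43, -0.14, -0.62 and -0.33. These are descriptions over genes that share libraries, and the score is a share of reads, not of editable bases.

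In the EDC4 knockdown 2 kinesins passed the test on reads, out of 34 tested, against 0.432% higher and 0.132% lower of 10642 genes (edgeR). KIF18B fell, from 121.7 and 116.2 CPM in the siNC libraries to 95.1 and 76.7 CPM in the siEDC4 libraries (-0.47 ± 0.12, adjusted p = 0.036). KIF1C rose, from 201.7 and 204.7 CPM to 295.0 and 249.6 CPM (0.42 ± 0.11, adjusted p = 0.038). For both the groups did not overlap. The fall of KIF18B did not pass with library size alone (0.055) or without siNC library 1 (0.11). The rise of KIF1C did not pass without siNC library 1 (0.089) or on the reads of the C-to-U table (0.052).

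The mitotic kinesins lay on 1 side of 0. All 12 tested had a log2 difference below 0, from -0.47 to -0.12 with a median of -0.23, against 5410 of all 10642 genes tested. Both siEDC4 libraries were below both siNC libraries for 11 of the 12, KIF15 being the exception, against 23.9% of all genes. The 12 were measured in the same libraries and are not independent replicates. Only KIF18B passed. KIF2A, kept outside this class, stood at 161.5 and 169.1 against 172.2 and 167.4 CPM (-0.039), with overlap. The next differences were those of KIF14 at -0.28 (114.5 and 102.3 against 129.5 and 133.9 CPM), KIF23 at -0.26 (105.7 and 100.8 against 130.2 and 116.2 CPM) and KIFC1 at -0.26 (70.1 and 57.9 against 78.8 and 74.2 CPM). The transport kinesins had a median of 0.001, with 5 mRNAs higher and 5 lower without overlap, against 24.5 and 23.9% of all genes. KIF3C stood at 66.8 and 57.4 against 50.1 and 50.2 CPM (0.31, adjusted p = 0.60), and KIF5B at 205.7 and 211.2 against 204.2 and 212.8 CPM (0.001). KIF3B differed most between siEDC4 libraries, at 72.03 and 131.1 CPM, against 118.3 and 123.5 CPM. The 18 other spindle and midzone mRNAs tested, with the kinesin CENPE among them (-0.37), were also all below 0. Their median was -0.23, with 15 without overlap and 0 past the test. The adaptors had a median of 0.056 and dynein and dynactin -0.017. In cell populations of this kind, fewer cells in mitosis and less mRNA per cell cannot be told apart. With the replicate number as a block over 4 libraries, KIF11, KIF14, KIF23 and KIF3B passed as lower too. That fit called more genes in general, 218 lower and 303 higher of 10639, against 14 and 46 in the main fit. The siEDC4 and siNC libraries of KIF3B overlapped.

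**Figure D4:**
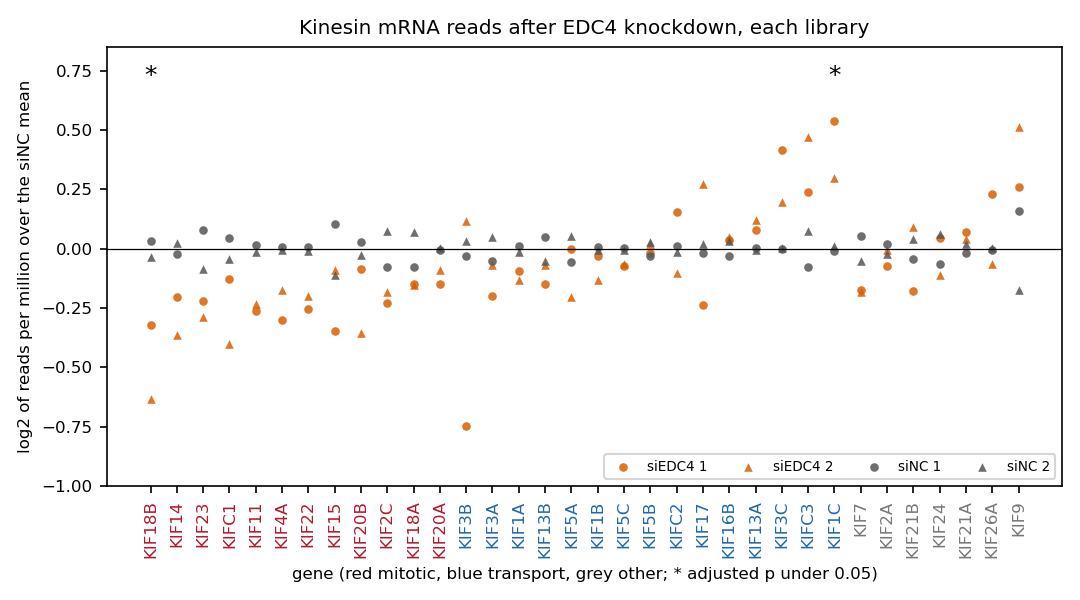
Log2 of CPM over the siNC mean for each of the 34 kinesins tested, with 1 point per library, grouped by class and ordered by log2 fold change within it. In the mitotic class at the left both siEDC4 points lie below both siNC points in all but KIF15, and asterisks mark KIF18B and KIF1C, which passed.

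Editing of kinesin mRNAs did not pass in the knockdown in either table. In simulated data with counting error only, a 4-fold change in odds was recovered for 40.9% of changed genes in A-to-I and 40.2% in C-to-U. A lack of calls therefore does not show that editing was unchanged. Of 31 kinesins tested for A-to-I, 0 were higher and 0 lower (edgeR; 1 at an unadjusted p under 0.05, KIF2A, and 0 with limma), as for all 9271 genes (0.0%, with 495 at an unadjusted p under 0.05). The median log2 odds ratio was 0.299 for the kinesins, 0.39 for mitotic and 0.17 for transport, against 0.297 for all genes. The class difference of 0.22 had no stable direction: it was -0.066 in the libraries numbered 1 and 0.49 in those numbered 2, -0.16 without siEDC4 library 2, 0.53 without siEDC4 library 1, 0.087 without siNC library 2 and 0.33 without siNC library 1. KIF2A stood at 4.68 and 4.78% in siEDC4 and 2.61 and 2.91% in siNC (0.81 ± 0.32, adjusted p = 0.81). Of the 3 highest log2 odds ratios, KIF9 had 3 of 91 and 0 of 71 reads edited, KIF26A stood at 2.09 and 0.344% against 0.301 and 0% and KIF22 at 0.276 and 0.567% against 0.225 and 0.123%. Of the 3 lowest, KIF13A stood at 0.836 and 0.867% against 1.43 and 1.25%, KIF13B at 1.18 and 0.791% against 2.00 and 0.775%, and KIFC2 at 0.249 and 0.318% against 0.536 and 0.296%. The groups overlapped for KIF13B and KIFC2, and each of these 6 had under 10 edited reads in each group.

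For C-to-U 0 of 31 kinesins passed in either direction (edgeR; KIF22 and KIF24 at an unadjusted p under 0.05, 2 in all, and 0 with limma), as for all 9745 genes (0.0%, 405 unadjusted). The median was 0.259 for kinesins and 0.187 for all genes. KIF22 stood at 0.552 and 0.560% in siEDC4 and 0.111 and 0.123% in siNC, on 8 of 1439 and 2 of 1713 reads (ratio of shares 4.76, exact 95% interval 0.9502 to 46.03, adjusted p = 0.99). KIF24, linked to cilia, had 0 of 441 and 5 of 455 (adjusted p = 0.99, edgeR). With 3 edited reads set in place of the 0, its share was 1.62-fold lower. That fold takes the 5 as exact, so it is not a bound. KIF16B stood at 1.79 and 1.39% against 0 and 0.939%, KIF18B at 1.73 and 1.84% against 0.665 and 1.05%, KIF13B at 0.394 and 0% against 1.66 and 0.388% and KIFC3 at 0 and 0% against 1.16 and 1.18%. The groups of KIF13B overlapped. These 6 were picked as the largest changes each way, so a lack of overlap in the others says little. Of the 6, 5 had under 10 edited reads in each group.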

How the data were processed

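Per the submitters' processing notes, reads were handled with cutadapt 1.18 and FastQC 0.11.9, STAR 2.7.9a and featureCounts 2.0.1 on hg38. Annotation, strand use, reads with several matches and the calling of edited sites: not given in the sources used here. The authors deposited whole-number counts per gene for the sort and, for each editor and comparison, tables of edited reads and reads per gene, entered as estimated counts because 3 broken lines per table, left out here, are not whole. The deposited editing score is a fraction, edited reads over reads, shown here in percent.

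Gene counts were compared with edgeR 4.0.16 in R 4.3.3 (TMM, filterByExpr, quasi-likelihood, Benjamini-Hochberg over all genes, threshold 0.05). For the knockdown it used the reads of the A-to-I table. Editing was tested with edgeR on edited and unedited reads of genes edited in at least 2 libraries. The siNC libraries were summed. SE is the estimate over the root of the F statistic. RPKM used the deposited exon length. DESeq2 1.42.0 and limma 3.58.1 served as alternatives. Scripts were tested on simulated data.

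Codon features came from 1 GENCODE 29 transcript per gene (hg38), the principal one where marked, and the trend with GC3 from lowess (statsmodels 0.14.6, span 30%). Intervals and floors cover counting error only.

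The kinesins, the classes, the companion lists and the tests were chosen with earlier results of these data known. Values in every library were given for the 4 largest changes each way among mitotic and transport kinesins in the sort plus KIF11, KIF23, KIF5B and KIF1B, the 3 largest each way in each editing table, kinesins that passed in the knockdown reads, and the 3 smallest p of each companion list; other genes were named after their values were seen. The labels' batch numbers pair libraries 1 and 2 across groups; deviations of same-numbered libraries correlated at 0.0912 (10534 genes) in the sort and -0.0295 (10199 genes) in the knockdown.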

Additional observations from a re-analysis of the deposited data

How the results depend on the processing

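Comparing each named gene with its value under each alternative, 262 values kept direction and side of the threshold, 23 fell short of it, 5 newly passed and 10 changed sign; of the counts and class differences, 128 stayed close and 30 moved. In the sort reads the 4 lower kinesins became 1 with DESeq2 and 7 with library size alone, and 0 to 8 with a library left out. The class difference of 0.81 became -0.133 with the GC3 trend removed, an alternative chosen after seeing the data, and ranged from 0.493 to 1.215 with a library left out, lowest without sorted library 2 and highest without sorted library 1. For A-to-I in the sort the class difference of 0.41 became 0.244 with limma and ranged from 0.363 to 0.451 with a library left out; centred on library medians, 2 kinesins were higher and 6 lower, and with a library left out 0 or 1 was lower. Single genes changed sign there: KIF9 ranged from -1.83 to 2.794, KIF26B from -5.529 to 0.055 (0.039 without cytosol library 1), KIFC3 from -2.483 to 0.005 and KIFC2 from -0.597 to 0.17. For C-to-U centring left 0 higher and 1 lower and turned KIF17 to -1.757, and with a library left out KIF1A ranged from -0.847 to 0.097 and KIFC3 from -2.981 to 0.553 (0.52 without sorted library 2). In the knockdown reads the 1 lower kinesin became 0 with library size alone and 0 to 10 with a library left out, and the 1 higher became 0 on the C-to-U table's reads and 0 to 2. Those larger counts came from fits that left 1 siEDC4 library, assumed to vary like the siNC libraries. The class difference there ranged from -0.271 to -0.191, and for knockdown C-to-U it became 0.122 with limma and -0.106 to 0.37. KIF13B in knockdown A-to-I ranged from -1.0 to 0.332. The causes were not tested. With the replicate number as a block, 5 kinesins were lower in the knockdown reads, where over all genes 303 were higher and 218 lower. Over all genes 29 were higher and 1 lower in knockdown A-to-I, and 3 and 1 in C-to-U. In the sort the block gave 19 higher and 5 lower and changed no other call but KIF20A in C-to-U (25 calls). The editing values of KIFC2, KIFC3, KIF9 and KIF26B rested on under 25 edited reads per group. Few edited reads did not always go with few reads. For A-to-I in the knockdown KIFC2 had 2 edited of 717 reads (siEDC4) and 3 of 711 (siNC). KIF18A, with fewer reads, had 16 of 443 (siEDC4) and 17 of 499 (siNC). The part played by depth was not tested.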

Other observations

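In the knockdown libraries, which were not made from sorted RNA, the editing scores of the 34 listed kinesins also fell with the share of codons ending in G or C. Spearman's rho was -0.41 (siEDC4) and -0.57 (siNC) for A-to-I and -0.49 and -0.465 for C-to-U, against -0.20, -0.20, -0.33 and -0.325 over all genes tested. These are descriptions across genes. KIF3A had the highest C-to-U score of the transport kinesins in siNC library 1, at 6.16%, with 5.02% in siNC library 2 and 7.10 and 4.05% in the siEDC4 libraries, and KIF3B the highest A-to-I score of any kinesin in that library, at 4.48 and 3.81% in siNC and 6.16 and 4.02% in siEDC4. In siNC library 2 KIF5C (5.43%) was above KIF3A for C-to-U, and KIF3A (4.325%) was above KIF3B for A-to-I. The siEDC4 and siNC groups overlapped for KIF3A in C-to-U and for KIF3B in A-to-I.

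In the companion lists, all 18 spindle and midzone mRNAs tested, CENPE included, rose in A-to-I score in the sort (edgeR, adjusted p under 0.05). So did 12 of 18 adaptors and 21 of 26 dynein and dynactin mRNAs, against 73.4% of all genes tested. DYNC1H1 did not pass (log2 odds ratio 0.16 ± 0.09, adjusted p = 0.12) although its reads rose, while DYNLL1, whose reads fell, had a log2 odds ratio of 4.36 ± 0.54 (adjusted p = 2e-06). KLC1, whose reads also fell, rose by 2.34 in A-to-I and 5.16 in C-to-U score.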
